A study of Mus musculus with 6 samples.

Results

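Mural cells, the pericytes of capillaries and the smooth muscle cells of arterioles, were followed in whole mouse islets through 10 genes. Acta2, Tagln, Myh11, Cnn1, Mylk and Des belong to the contractile apparatus and its cytoskeleton. Rgs5, Pdgfrb, Cspg4 and Notch3 were grouped here as pericyte genes, which does not make them exclusive to pericytes. The 10 genes were taken by symbol from a table of 55536 genes, where all 10 were found. They were set against Col1a1, the type I collagen gene made mainly by fibroblasts and stellate cells, to ask whether mural genes followed it. RNA with polyA tails came from pancreatic islets of C57B1/6J mice. The 3 control libraries had the genotype Klf4+/+;Gcg-iCre and the 3 knockout libraries Klf4fl/fl;Gcg-iCre. In both genotypes Cre recombinase was driven by glucagon gene sequences (Gcg-iCre), which are active in alpha cells, and the knockout mice also carried floxed alleles of Klf4, a zinc finger transcription factor gene. No treatment is named, and age and sex are not given in the sources used here.

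Pericytes sit on the capillary wall within the shared basement membrane. Endothelial cells recruit them with platelet-derived growth factor B, which binds the receptor encoded by Pdgfrb, and endothelial Jagged and Delta ligands signal to Notch3 on the mural cell. In smooth muscle, serum response factor and its partners of the myocardin family bind CArG boxes in the promoters of contractile genes. In cultured and injured smooth muscle KLF4 is known as a repressor of these genes. In the islet, pericytes are abundant along a dense capillary bed, while smooth muscle is restricted to the feeding arterioles. Gcg-iCre is not directed at mural cells. The counts came from whole islets, so the cell type in which a gene changed cannot be told from them.

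Libraries held between 101277200 and 110243918 counts, and Ins1 and Ins2 together took at least 16.8% of the counts in each. Gcg, the alpha cell hormone gene, took 3.59% to 5.36% of the counts in controls and 2.74% to 3.32% in knockouts, without overlap. Klf4 itself averaged 2681 ± 592 normalized counts in the controls against 2386 ± 137 in the knockouts (SD over 3 libraries), with overlapping ranges (DESeq2 adjusted p = 0.774), so its whole-islet count did not separate the labels. Counts per gene cannot tell the floxed exons from the rest. Xist ran from 77938 to 108105 normalized counts in controls and from 12.4 to 30.2 in knockouts, and the Y-linked gene Ddx3y had 0 counts in every control library and at least 5599 normalized counts in every knockout library. Genotype and these sex-linked transcripts divided the libraries identically, so an effect of either on the genes below cannot be told apart from the other. Nothing in the labels says that libraries came from separate animals, so the p-values measure the spread between these libraries.

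Of the 10 mural genes, 9 did not follow Col1a1, and the tenth, Cnn1, had too few counts to tell. Nor did most other genes: 92.4% of those with a mean of at least 50 normalized counts were lower relative to Col1a1, in the test of that ratio described further on. For Col1a1, control replicates 1 to 3 gave 13063, 14681 and 10390 normalized counts, and knockout replicates 1 to 3 gave 25614, 23291 and 25427. Every knockout library was above every control, and the log2 fold change of knockout against control was 0.96 ± 0.12 (SE, DESeq2 adjusted p = 1.14e-13; edgeR adjusted p = 0.0245). Of the 10 mural genes, 9 were given an adjusted p-value by DESeq2 and 0 passed 0.05, against 2.19% of all 17797 genes tested (1.53% higher and 0.657% lower). Unadjusted p-values were under 0.05 for 2 of them in DESeq2 (11.5% of genes tested) and for 3 in the edgeR quasi-likelihood test (9.48%), where 0 of 10 passed after adjustment (0.115% of genes, 0.0952% higher and 0.0198% lower). The log2 fold changes of the 9 genes had a median of -0.07, beside -0.0061 for all genes tested. In all but Cnn1, the upper end of the 95% confidence interval lay under the lower end of the interval of Col1a1, 0.74, as for 89.4% of the other genes with a mean of at least 50 normalized counts. In bulk RNA, fewer cells of a type and less RNA per cell cannot be told apart.

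**Figure D1:**
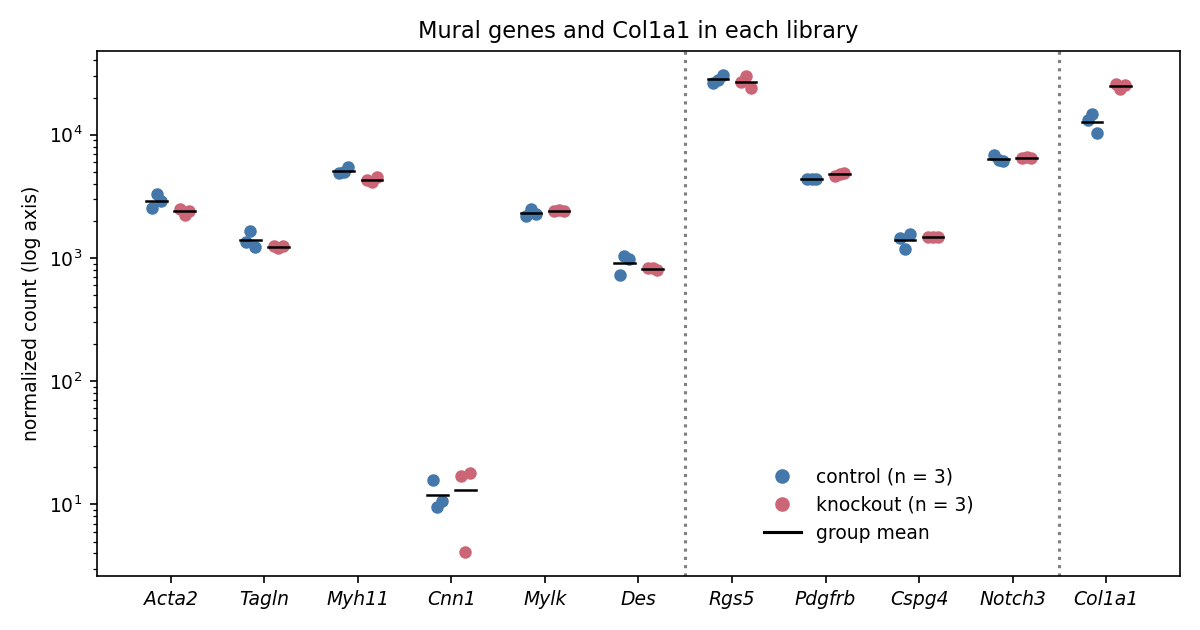
Normalized counts (log axis) of the 10 mural genes and Col1a1 in each of the 3 control and 3 knockout libraries, with bars at the group means; dotted lines part contractile genes, pericyte genes and Col1a1. Only for Col1a1 are the groups widely parted; Acta2 and Myh11 sit slightly lower, and Pdgfrb slightly higher, in the knockout libraries without overlap.

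The levels of the members were first ordered per length, as CPM (the share of a library's counts, scaled to a fixed total) per kilobase of annotated exon. Rgs5, which encodes a regulator of G-protein signalling that shortens the response of vasoactive receptors, was the most abundant at 51.5 to 62.8 CPM per kb over the 6 libraries. Acta2 followed at 9.58 to 14.2, above the range of every member after it and below Rgs5. Pdgfrb (7.36 to 8.67), Notch3 (6.99 to 8.38), Tagln (5.65 to 7.92) and Myh11 (5.12 to 6.73) came next, and each of these ranges overlapped that of its neighbour in the order. Des (1.90 to 2.65) and Mylk (1.86 to 2.10) also overlapped, and Cspg4 lay below them at 0.950 to 1.21. Cnn1 was close to the limit of the libraries at 0.0142 to 0.0641 CPM per kb. Contractile and pericyte genes were thus interleaved in this order: Acta2 lay above 3 of the 4 pericyte genes, and of the smooth muscle genes Myh11 was well detected and Cnn1 barely. Exon lengths join all annotated transcripts of a gene, including the long and short forms of Mylk.

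**Figure D2:**
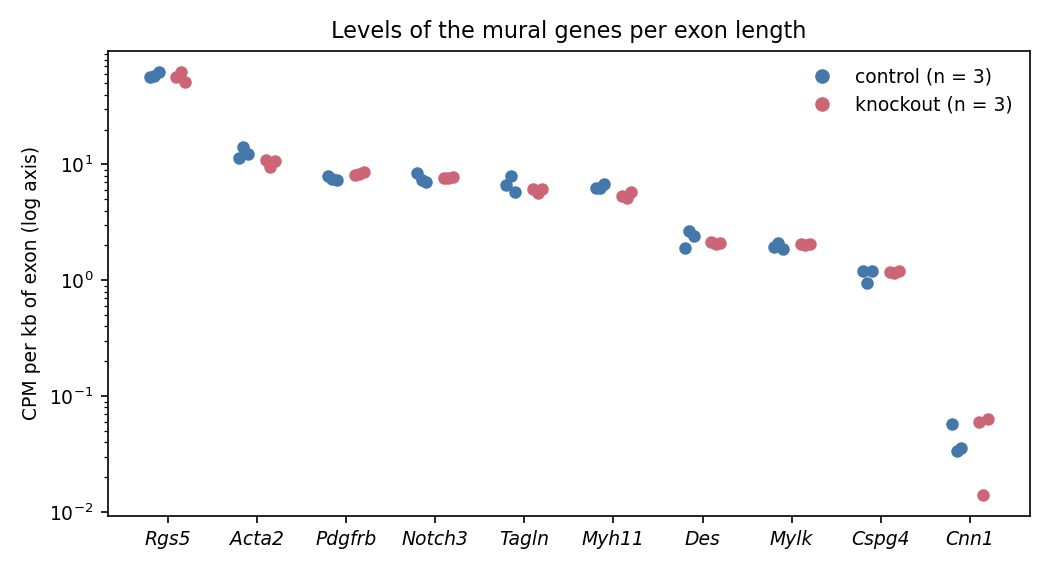
Level of each mural gene as CPM per kilobase of exon (log axis) in the 3 control and 3 knockout libraries, ordered by the mean of 6 libraries. Rgs5 stands above the rest at 51.5 to 62.8, 9 genes follow, and Cnn1 is the lowest at 0.0142 to 0.0641.

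Among the contractile genes, Acta2 and Myh11 had the lowest fold changes. Acta2 (ENSMUSG00000035783, chromosome 19, 34241090 to 34255590, minus strand, GRCm38), which encodes the smooth muscle form of alpha-actin, gave 2558, 3274 and 2897 normalized counts in the controls, in replicate order, and 2495, 2234 and 2417 in the knockouts. All 3 knockout libraries were below all 3 controls, although knockout replicate 1 and control replicate 1 were close together. The log2 fold change was -0.29 ± 0.11 (SE, DESeq2 adjusted p = 0.168), a change of -18.1% with a 95% confidence interval from -29.4% to -5.11% before adjustment. Acta2 passed in 1 of 12 alternatives, the fit without control replicate 1 (log2 fold change -0.37, adjusted p = 0.0215); over the 12 its adjusted p ran from 0.0215 to 0.594. Actin coding sequences are near-identical, and how reads shared between them were counted is not given in the sources used here.

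Myh11 (ENSMUSG00000018830, chromosome 16, 14194535 to 14291372, minus strand), the heavy chain of smooth muscle myosin, stood at 4845, 4990 and 5491 normalized counts in controls and 4247, 4129 and 4530 in knockouts. The groups did not overlap. Its log2 fold change of -0.25 ± 0.08 (SE) did not pass in DESeq2 (adjusted p = 0.0925) or in edgeR (adjusted p = 0.306). The change was -15.8%, with an interval from -24.8% to -5.66% before adjustment. Non-overlapping groups with lower knockout values were found for 8.54% of the 15811 genes with a mean of at least 50 normalized counts, and for 2 of the 9 members with such a mean.

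Tagln (ENSMUSG00000032085, chromosome 9, 45929619 to 45936058, minus strand), which encodes the actin-binding protein transgelin, was at 1347, 1653 and 1228 normalized counts in controls and 1260, 1192 and 1247 in knockouts. Des (ENSMUSG00000026208, chromosome 1, 75360329 to 75368579, plus strand), the muscle intermediate filament gene that is also a stellate cell marker, was at 724, 1044 and 980 in controls and 831, 827 and 802 in knockouts. The 3 knockout values of each gene lay close together; those of Des were inside the control range, and those of Tagln reached below it. The groups overlapped for both. The log2 fold changes were -0.19 ± 0.13 for Tagln and -0.16 ± 0.15 for Des (SE, DESeq2 adjusted p = 0.625 and 0.799). Without control replicate 2 they were -0.063 and -0.055, and without control replicate 1 that of Des was -0.30. Exons of Tagln overlap those of Pcsk7 on the opposite strand, a proprotein convertase gene at 2197 ± 227 normalized counts in controls (SD, n = 3), and Des and Mylk also overlap genes on the opposite strand. Without a stated strand setting, reads of such partners cannot be told apart.

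Mylk (ENSMUSG00000022836, chromosome 16, 34745210 to 35002420, plus strand), the myosin light chain kinase that starts contraction, was at 2197, 2487 and 2253 normalized counts in controls and 2423, 2431 and 2387 in knockouts. The knockout values lay within the control range, and the log2 fold change was 0.06 ± 0.09 (SE, DESeq2 adjusted p = 0.901), with 0.025 without control replicate 1 and 0.12 without control replicate 2. Cnn1 (ENSMUSG00000001349, chromosome 9, 22099216 to 22109630, plus strand), which encodes the thin-filament protein calponin of differentiated smooth muscle, had only 16, 10 and 10 counts in controls and 18, 4 and 18 in knockouts. These counts are too few for a comparison: DESeq2 gave no adjusted p-value, the edgeR adjusted p was 0.977, and the interval of the change ran from -64.4% to 231%.

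The promoters of 3 members are shown because these genes span the set: Acta2 had the most negative fold change, Cnn1 the lowest level and Rgs5 the highest. Windows of 300 bases, from 250 before to 50 after the start site, came from RefSeq on GRCm38.p6 and were found for 7 of the 10 members. Tagln, Myh11 and Pdgfrb had no entry. Before and after refer to the start site of each window, which need not be the gene end given in this report. For Acta2 the upstream end of the gene, 34255590, lies upstream of the window's start site. Capitals mark CArG boxes, read as CC and GG around a run of A and T in which at most 1 G or C was allowed, and CACCC, the core of elements that Kruppel-like factors bind, on either strand (GGGTG on the other). No capitals overlap.
Acta2 (chr19:34255324-34255623, minus strand): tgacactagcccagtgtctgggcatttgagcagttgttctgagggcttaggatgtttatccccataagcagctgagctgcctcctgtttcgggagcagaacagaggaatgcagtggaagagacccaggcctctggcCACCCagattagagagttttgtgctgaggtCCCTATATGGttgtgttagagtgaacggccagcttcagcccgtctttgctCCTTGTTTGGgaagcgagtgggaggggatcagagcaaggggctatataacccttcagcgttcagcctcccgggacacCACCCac
Cnn1 (chr9:22099003-22099302, plus strand): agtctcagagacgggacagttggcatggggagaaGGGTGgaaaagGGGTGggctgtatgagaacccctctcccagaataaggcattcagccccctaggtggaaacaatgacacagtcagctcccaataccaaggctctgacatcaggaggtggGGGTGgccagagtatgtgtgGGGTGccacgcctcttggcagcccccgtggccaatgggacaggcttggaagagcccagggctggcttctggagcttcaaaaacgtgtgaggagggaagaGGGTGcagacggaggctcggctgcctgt
Rgs5 (chr1:169655251-169655550, plus strand): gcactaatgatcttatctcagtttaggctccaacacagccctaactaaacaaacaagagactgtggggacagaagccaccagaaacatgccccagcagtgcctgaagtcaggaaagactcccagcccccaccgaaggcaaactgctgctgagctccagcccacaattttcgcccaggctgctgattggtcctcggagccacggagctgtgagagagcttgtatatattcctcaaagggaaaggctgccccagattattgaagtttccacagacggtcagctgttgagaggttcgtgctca
Acta2 held 2 such CArG boxes, CCCTATATGG and CCTTGTTTGG, each with 1 G or C in its centre, and 2 CACCC matches. It was the only member of the 7 with a CArG box under this rule, which 9.98% of 32851 promoter windows met; with no G or C allowed, 0 of 7 members and 1.63% of windows matched. Cnn1 held 5 CACCC matches and Rgs5 none of either motif. A CACCC match was found in 4 of the 7 members and in 57.5% of all windows. These matches describe the letters of the windows and say nothing of binding in these islets.

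Of the 4 pericyte genes 0 passed in DESeq2 or edgeR. Pdgfrb (ENSMUSG00000024620, chromosome 18, 61045150 to 61085061, plus strand), the receptor through which endothelial PDGF-B holds pericytes to the vessel, had 4395, 4338 and 4330 normalized counts in controls and 4635, 4816 and 4867 in knockouts. The groups did not overlap, with the knockout values higher, as for 9.42% of genes with a mean of at least 50. The log2 fold change was 0.13 ± 0.07 (SE, DESeq2 adjusted p = 0.448; edgeR adjusted p = 0.456), and the interval of the change, from -0.126% to 20.3%, lay far below the 66.6% that bounded Col1a1 from below.

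Rgs5 (ENSMUSG00000026678, chromosome 1, 169655501 to 169695813, plus strand) stood at 26427, 27716 and 30694 normalized counts in controls and 26757, 30184 and 23964 in knockouts. Notch3 (ENSMUSG00000038146, chromosome 17, 32120820 to 32166852, minus strand), the Notch receptor of mural cells, stood at 6882, 6213 and 6077 in controls and 6464, 6610 and 6452 in knockouts. Cspg4 (ENSMUSG00000032911, chromosome 9, 56865033 to 56899870, plus strand), the NG2 proteoglycan of the pericyte surface, stood at 1448, 1190 and 1555 in controls and 1477, 1470 and 1481 in knockouts. The groups overlapped for all 3 genes. Their log2 fold changes were -0.07 ± 0.10, 0.03 ± 0.08 and 0.08 ± 0.12 (SE), with DESeq2 adjusted p-values of 0.906, 0.961 and 0.910, and the intervals of the change reached at most 9.07%, 13.0% and 23.9%. Notch3 overlaps a gene on the opposite strand.

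**Figure D3:**
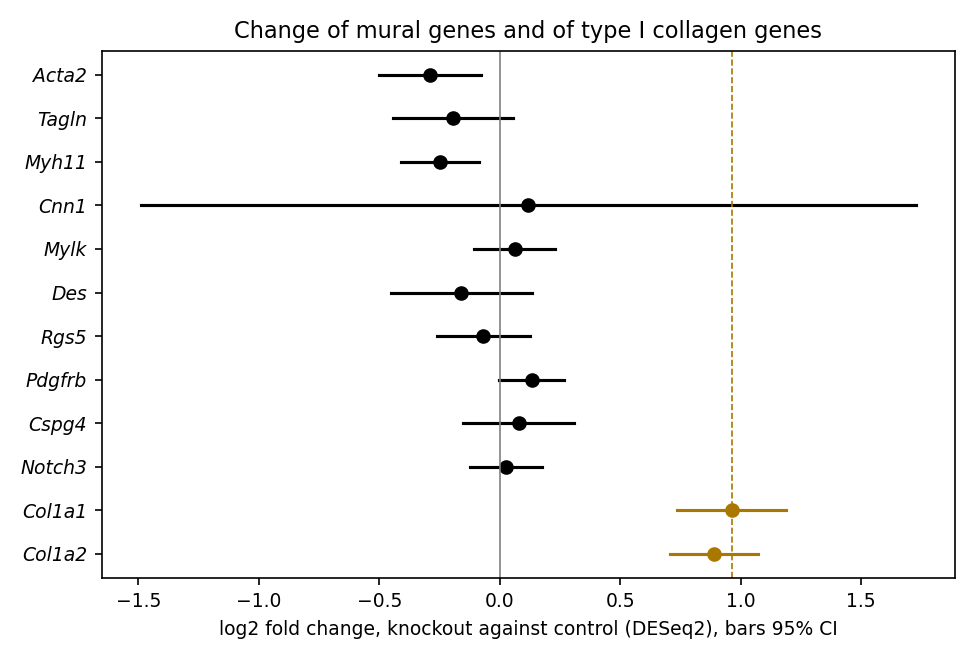
Log2 fold change of knockout against control (points) with its 95% confidence interval (bars, DESeq2, 3 libraries per group) for the 10 mural genes and, in ochre, Col1a1 and Col1a2; the dashed line marks Col1a1 at 0.96. Apart from the wide bar of Cnn1, the bars of the mural genes end short of the bar of Col1a1.

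The question of whether a mural gene changed by the same factor as Col1a1 was tested directly by scaling every library to its own Col1a1 count. Per 100 Col1a1 reads, Acta2 had 19.6, 22.3 and 27.9 reads in controls against 9.74, 9.59 and 9.51 in knockouts. Pdgfrb had 33.6, 29.6 and 41.7 in controls and 18.1, 20.7 and 19.1 in knockouts, and Rgs5 had 202, 189 and 295 against 104, 130 and 94.2. In each of the 10 members except Cnn1 every knockout library was below every control on this scale, as for 92.4% of 15810 genes with a mean of at least 50 normalized counts. These 9 genes also passed the test of the ratio, all lower, as did 64.1% of all genes in either direction (0.199% higher). In it Acta2 changed by -1.27 ± 0.18 on the log2 scale (SE, DESeq2 adjusted p = 5.61e-10), Myh11 by -1.25 ± 0.20 (adjusted p = 8.59e-09) and Pdgfrb, at the other end, by -0.86 ± 0.18 (adjusted p = 7.74e-06). Cnn1, at -0.89 ± 0.84, did not pass (adjusted p = 0.361).

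All members share the Col1a1 counts as their denominator, so the 9 results are not independent of each other. A lower ratio was also the rule among other genes: 63.9% of 24637 genes tested passed in this direction, and 92.4% of those with a mean of at least 50 normalized counts. The members' median change of -1.01 sat beside -0.996 for genes with such a mean, so on this scale the mural genes stood where most genes stood. The collagen genes that accompany Col1a1 in fibrils did not pass: Col1a2 had 85.3, 89.7 and 102 reads per 100 Col1a1 reads in controls and 85.6, 88.3 and 87.0 in knockouts (log2 change -0.09 ± 0.16 SE, adjusted p = 0.655), and Col3a1 had 166, 179 and 184 against 158, 162 and 146, every knockout library being lower (-0.18 ± 0.15, adjusted p = 0.305). The intervals of these changes ran from -0.40 to 0.22 for Col1a2 and from -0.49 to 0.12 for Col3a1.

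**Figure D4:**
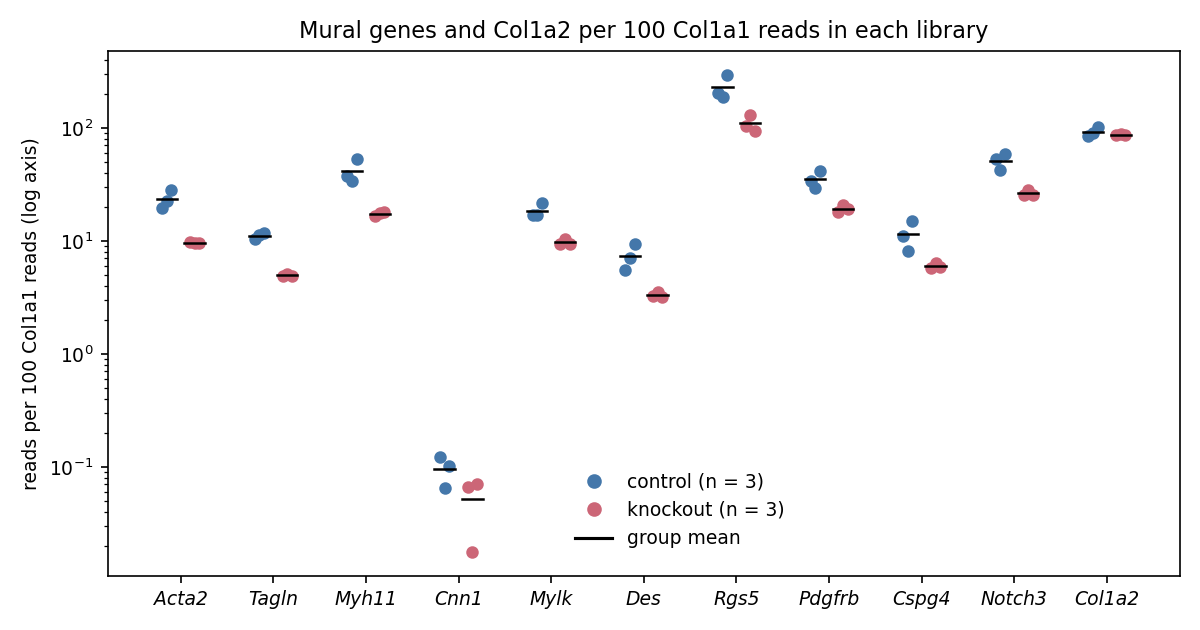
Reads of each mural gene and of Col1a2 per 100 Col1a1 reads (log axis) in the 3 control and 3 knockout libraries, with bars at the group means. The groups part for every mural gene except Cnn1, and overlap for Col1a2 near 85.3 to 102 reads.

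Levels within the mural set were also set against Pdgfrb for 4 members, with no test. As a description chosen after the values were seen, Myh11 had 110, 115 and 127 reads per 100 Pdgfrb reads in controls and 91.6, 85.7 and 93.1 in knockouts. Acta2 had 58.2, 75.5 and 66.9 in controls and 53.8, 46.4 and 49.7 in knockouts. The pericyte gene Notch3 had 157, 143 and 140 in controls and 139, 137 and 133 in knockouts. For these 3 genes, contractile and pericyte alike, every knockout library was below every control, as for 32.1% of 15810 genes on this scale, while the ratios of Rgs5, at 601, 639 and 709 against 577, 627 and 492, overlapped. Pdgfrb was itself higher in every knockout library, and Notch3 overlapped between groups before the division.

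The profiles of the members over the 6 libraries were compared with those of 15802 other genes, as the root mean square difference of log2 values centred on their mean. The mean profile of the 5 contractile members with a mean of at least 50 normalized counts was nearest to Gstm5 (0.025), Zkscan7 (0.026), Stx8 (0.029) and Ubl5 (0.029). The mean profile of the 4 pericyte members was nearest to Mxd4 (0.0090), Zfp316 (0.010), Eid2b (0.013), Mfge8 (0.015) and Eri2 (0.016). Col1a1 ranked 15304 of 15802 in likeness to the contractile profile, at 0.59, and 15106 to the pericyte profile, at 0.50. Both mean profiles were nearly flat, from -0.11 to 0.22 for the contractile and from -0.095 to 0.072 for the pericyte members. A gene that changed as much as Col1a1 lies far from any such profile on this measure, so these ranks add nothing to its fold change.

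Further genes of the contractile programme, listed with results of these data known, also gave no call. Of 18 such genes, 17 were given an adjusted p-value and 0 passed in DESeq2 or edgeR. Of the 17, 4 had an unadjusted p under 0.05 in DESeq2, and the median log2 fold change was -0.18, with 14 negative and 3 positive. Beside this and every list below stand the shares over all genes tested: 11.5% had an unadjusted p under 0.05 in DESeq2. After adjustment 2.19% passed in DESeq2 (1.53% higher and 0.657% lower) and 0.115% in edgeR, and the median was -0.0061. The share of negative signs over all genes was not counted. The most abundant gene of the contractile list by count, Rcan2, which encodes a calcineurin regulator, was at 9774 ± 322 and 9759 ± 512 normalized counts (SD, n = 3 each). Actg2, the enteric smooth muscle actin, had 15.9, 18.2 and 6.36 normalized counts in controls and 24.6, 18.6 and 17.0 in knockouts, and Myocd, which encodes the cofactor myocardin, 126 ± 19.8 and 142 ± 22.5; both were picked after their values were seen.

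Among 12 regulators around serum response factor, 1 passed, higher, and 0 lower, with a list median of -0.07. It was Mrtfa, a myocardin-related cofactor that carries actin signals to the nucleus, which rose from a mean of 3398 ± 164 in controls to 4082 ± 85.6 in knockouts (log2 fold change 0.26 ± 0.08 SE, DESeq2 adjusted p = 0.0305). It did not pass in edgeR (adjusted p = 0.201), with total counts as size factors (0.0763), or without control replicate 2 (0.114), knockout replicate 1 (0.268) or knockout replicate 3 (0.158), and its exons overlap Sgsm3 on the opposite strand. Mef2d, the most abundant of the list and a transcription factor of muscle and nerve, was at 17796 ± 1011 and 16384 ± 942 normalized counts.

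Of 24 further pericyte genes 22 were given an adjusted p-value, and 1 passed in each direction, with a median of -0.04. Ednrb, an endothelin receptor gene, fell from 3936, 3738 and 4237 normalized counts in controls to 3057, 3194 and 2764 in knockouts (log2 fold change -0.40 ± 0.09 SE, DESeq2 adjusted p = 0.00174). Anpep, which encodes the membrane aminopeptidase CD13, rose from 18652, 20309 and 20707 to 24150, 24967 and 23525 (0.28 ± 0.07, adjusted p = 0.00593). The groups did not overlap for either gene. Neither passed in edgeR (adjusted p = 0.15 and 0.21), and Anpep did not pass without knockout replicate 1 (0.103). Both genes are also expressed outside pericytes, Anpep in epithelium and myeloid cells and Ednrb in endothelium and glia, and Tbx18 of this list had 0 counts in every library.

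In the PDGF pathway 2 of 11 genes passed, both higher, with a median of 0.10. Pdgfra, the receptor of fibroblasts and mesenchymal progenitors, rose from 585, 629 and 626 normalized counts in controls to 1157, 982 and 1223 in knockouts (log2 fold change 0.87 ± 0.13 SE, DESeq2 adjusted p = 3.06e-09; edgeR adjusted p = 0.0343); its exons overlap other annotated genes. Its paralog Pdgfrb stood at 0.13, as given above; the difference between the receptors was not tested. Pdgfb, the endothelial ligand of Pdgfrb, rose from 1706 ± 25.9 to 2059 ± 52.7 (0.27 ± 0.08, adjusted p = 0.0449), but did not pass in edgeR (0.250), with total counts as size factors (0.0528), with no filter (0.0743), or without any of control replicates 1 and 2 and knockout replicates 1 to 3 (0.0517 to 0.272). Shc1, an adaptor of receptor tyrosine kinases and the most abundant of the list, had 14201 ± 660 and 15167 ± 1622. Of 17 Notch pathway genes 0 passed in DESeq2 or edgeR (5 with an unadjusted p under 0.05 in DESeq2, median 0.03), and Notch1, its most abundant gene and a receptor of many cell types, was at 10150 ± 623 and 10498 ± 304.

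Genes of neighbouring cells were read from further lists, whose difference from the mural genes was not tested. Of 22 fibroblast and stellate genes, Col1a1 among them, 10 passed and all of these were higher, with a median of 0.41; 4 passed in edgeR. Besides Col1a1 and Pdgfra, Col1a2 rose by 0.89 ± 0.09, Col3a1 by 0.78 ± 0.11 and Col5a1 by 0.73 ± 0.10 (log2 fold change ± SE). The summed list ran from 91059 to 118921 normalized counts in controls and from 153543 to 162806 in knockouts, with no member at 0. Since Col1a1 is known to rise here from the choice of comparison, this list is no independent evidence of the direction. Of 13 basement membrane genes 2 passed, both higher (median 0.19; 0 in edgeR): Col4a1, the type IV collagen chain of vessel walls, by 0.29 ± 0.07 (adjusted p = 0.00247) and Sparc, a collagen-binding matrix protein, by 0.29 ± 0.07 (adjusted p = 0.00362). All 13 basement membrane genes had positive log2 fold changes, and 7 had an unadjusted p under 0.05 in DESeq2. Col4a1 shares exonic sequence with Col4a2 on the opposite strand.

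Of 16 endothelial genes 1 passed, higher (median 0.12, 0 in edgeR), namely Vwf, which encodes von Willebrand factor, at 1492 ± 249 and 2191 ± 115 normalized counts. In this list 15 log2 fold changes were positive and 1 negative, and 3 genes had an unadjusted p under 0.05 in DESeq2. The most abundant endothelial gene, Plvap of the fenestrated capillary, was at 28634 ± 1402 and 30333 ± 2810. Of 10 Schwann cell genes 0 passed in DESeq2 or edgeR, none with an unadjusted p under 0.05 in DESeq2 (median -0.04), and Mbp, a myelin protein gene, was at 10293 ± 1085 and 10400 ± 545. Skeletal muscle, which also expresses Des, was nearly absent: the 10 genes listed summed to 301 to 369 normalized counts in controls and 325 to 479 in knockouts, 3 of them (Myh4, Pvalb and Myod1) were at 0, and the highest, Mylpf, was at 136 ± 27.0 and 154 ± 37.4. Of its 3 genes given an adjusted p-value 0 passed in DESeq2 or edgeR, none with an unadjusted p under 0.05.

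Markers of other cells that an islet preparation can hold were also summed. The 12 acinar enzyme genes summed to between 644188 and 1304920 normalized counts in controls and between 1631690 and 2306650 in knockouts; 11 had an unadjusted p under 0.05 and 0 passed in DESeq2 or edgeR (median 1.07), with Pnlip, pancreatic lipase, the highest and no gene at 0. Of 12 macrophage genes 4 passed, all higher (median 0.33; 0 in edgeR): Mrc1, C1qb, C1qc and Cd68, at log2 fold changes of 0.88, 0.40, 0.44 and 0.53. The summed macrophage list ran from 12534 to 13718 in controls and from 13185 to 15454 in knockouts, and its most abundant gene, C1qa, was at 5827 ± 669 and 4819 ± 791. Of 10 mesothelial genes 5 were given an adjusted p-value and 0 passed in DESeq2 or edgeR (1 with an unadjusted p under 0.05, median -0.48). Of the 5, 3 were negative and 2 positive. Msln was at 8980 ± 3477 and 5370 ± 1068, with overlapping groups, and Muc16 at 0. Msln did not stand for the list: Upk1b, Wt1, Lrrn4 and Bnc1 averaged at most 5.34 normalized counts in either group. Upk3b averaged 29.9 in controls and 15.1 in knockouts, and Krt19 and Cldn15 had positive log2 fold changes (0.34 and 0.35). The part of these cells in the mural values was not tested.

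**Figure D5:**
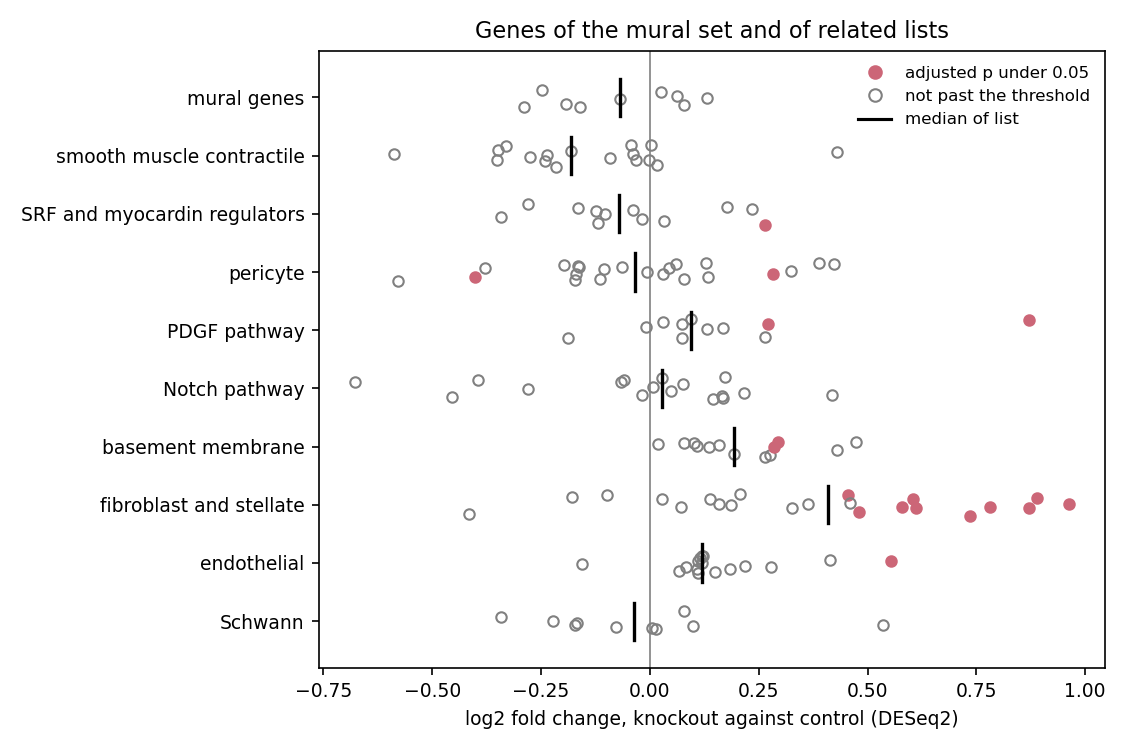
Log2 fold change of knockout against control (DESeq2) for the genes of the mural set and of 9 related lists that were given an adjusted p-value; filled points passed an adjusted p of 0.05 and bars mark each median. No mural gene is filled and their median is -0.07, while 10 fibroblast and stellate genes are filled on the right, with a list median of 0.41.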

How the data were processed

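Islet polyA RNA was sequenced in 3 control and 3 knockout libraries. The deposited table holds the authors' counts of reads per gene, without normalization. The file name records cutadapt trimming, and the submitters' processing notes list FastQC, STAR, featureCounts, DESeq2 and build mm10, with no versions or settings; the strand setting is not given in the sources used here. All 55536 genes matched GENCODE M21 (GRCm38) by identifier and symbol, which supplied coordinates and exon lengths. Of the columns of per-sample values, 0 were left unused.

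DESeq2 1.42.0 (R 4.3.3) was run as the series' design text states, with genotype as the only term, on genes with at least 10 counts in total, and p-values were adjusted by Benjamini-Hochberg over the 17797 genes left by DESeq2's independent filtering (25210 in edgeR, which has no such step). Normalized counts are counts divided by median-of-ratios size factors. The ratio test used the Col1a1 count as size factor. Intervals are 95% Wald intervals. A floor of 3 counts equals 0.0272 to 0.0296 CPM, for counting error only. Where a symbol had several identifiers, the one with the highest mean was used. Alternatives were edgeR 4.0.16, TMM or total-count factors, no filter or at least 10 counts in 3 libraries, the replicate block, each library left out, other collagen references and limma 3.58.1 for the ratio. The scripts were tested on simulated data.

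The members and all lists were chosen with earlier results of these data known. Beside Actg2 and Myocd, picked after their values were seen, the genes named by rule were the 10 members, Col1a1 and Col1a2, each list's most abundant gene by count, up to 4 list genes past the threshold (those with the lowest adjusted p-values), and the 5 genes nearest to each mean profile. Results of 1 gene list and 1 gene near the contractile profile are not reported here, though the list's genes stay in the counts over all lists. Chi-square statistics between replicates of a group were 40.0 to 120 times their degrees of freedom over 15820 genes, so no library was a copy of another.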

Additional observations from a re-analysis of the deposited data

How the results depend on the processing

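Of the mural genes, 0 were higher and 0 lower under every alternative, except that leaving out control replicate 1 gave 1 lower, Acta2, so the leave-one-out range of lower genes was 0 to 1. Relative to Col1a1, 9 were lower and 0 higher under all 13 alternatives. Over the 206 listed genes, 20 were higher and 1 lower. The edgeR test gave 4 and 0, the replicate block 32 and 4, and leave-one-out fits 10 to 26 and 1 to 6, the lowest number of higher genes coming without knockout replicate 1 and the next, 13, without knockout replicate 3; the cause was not tested. Over all genes, edgeR called 29 (82.8% higher) in place of 389 (69.9% higher), leaving out knockout replicate 1 gave 153 and leaving out control replicate 3 gave 952. Reversed signs, none past the threshold, came for Cnn1 under the replicate block (-0.073) and in leave-one-out fits (-0.18 to 0.54), and in leave-one-out fits for Rgs5 (-0.16 to 0.0090, without knockout replicate 3), Cspg4 (-0.025, without control replicate 2, to 0.16) and Notch3 (-0.0083, without control replicate 3, to 0.082). Leave-one-out fits also ran from -0.28 to -0.063 for Tagln, -0.30 to -0.055 for Des and 0.025 to 0.12 for Mylk. Same-numbered libraries shared only a number: their deviations correlated at -0.0482, -0.0587 and 0.0105, and 1 of 6 libraries correlated best with its own number. With the replicate block, Mrtfa had an adjusted p of 0.0887 and Pdgfb of 0.192 in DESeq2, both called without it. Of 322 single-gene results under the alternatives, 296 stayed on their side of the threshold with the same sign, 18 lost their call, 1 gained one and 7 changed sign. Counting depth limits Cnn1, and 3 libraries per group limit the precision of all members.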

Other observations

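The knockout libraries varied less than the controls for 7 of the 9 mural genes with a mean of at least 50 normalized counts, by the SD of log2 values over 3 libraries. For Cspg4 the SD was 0.20 in controls and 0.0056 in knockouts, for Des 0.28 and 0.028, and for Tagln 0.22 and 0.042. Rgs5 (0.11 and 0.17) and Pdgfrb (0.012 and 0.037) went the other way. The smaller SD was in the knockouts for 65.0% of all 15811 genes with such a mean, so the mural share was near that of the transcriptome.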
